A study of Homo sapiens with 10 samples.

Results

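The genes described are 41 Fanconi and homologous recombination repair genes, taken as the rows of the deposited count table whose gene name is on a fixed list of 41 names. The table holds 60574 genes, of which 17834 had enough reads to be tested, and all 41 repair genes were among them. RNA came from U266, an established multiple myeloma (plasma cell cancer) line, and poly(A) RNA was sequenced in 10 libraries. All 10 libraries shared a lentivirally delivered dCas9-VPR, a Cas9 protein that cannot cut DNA and carries transcriptional activators, and all were kept under puromycin and blasticidin. In 5 libraries (A to E) the cells also had a guide RNA aimed at the start site of EFNB2, the gene of the membrane ligand ephrin-B2, and in the other 5 (A to E) a scrambled control guide. The comparison asks how RNA of the repair genes differs when EFNB2 is activated. Whether A to E of a guide were separate cultures is not stated in the labels, and the tests then measure only the spread between libraries, which may be technical. Each guide is represented by a single guide RNA.

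Fanconi proteins repair DNA whose strands are covalently tied together. A multi-subunit core complex, recruited by FANCM, attaches ubiquitin to FANCD2 and FANCI, and this pair then directs nucleases that unhook the crosslink and leave a double-strand break. Homologous recombination mends that break by copying the sister chromatid: ends are trimmed by MRE11, RAD50, NBN, RBBP8 and EXO1, BRCA1 and BRCA2 with their partners prepare the trimmed end for strand invasion, RAD54L opens the template, and BLM with TOP3A, RMI1 and RMI2 takes the joined molecules apart. ATM and ATR with CHEK2 and CHEK1 signal the damage to the cell cycle. In dividing cells many of these genes are transcribed mainly around S phase, several of them under the E2F transcription factors.

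Promoter sequence is shown for 5 genes that were higher with the EFNB2 guide: FANCD2, EXO1, CLSPN and XRCC2, which hold an E2F site as spelled below, and BLM, which has 3 CCAAT boxes and none of those E2F letters. The sequences are from RefSeq (GRCh38.p14), run 5′ to 3′ on the strand of the gene from 150 bases before to 30 bases after its start, and carry matched motifs in capitals.
FANCD2 (chr3:10026287-10026466, plus strand): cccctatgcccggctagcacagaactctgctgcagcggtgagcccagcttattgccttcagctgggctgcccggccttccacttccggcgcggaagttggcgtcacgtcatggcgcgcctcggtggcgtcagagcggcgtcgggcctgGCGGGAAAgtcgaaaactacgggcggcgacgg
EXO1 (chr1:241848054-241848233, plus strand): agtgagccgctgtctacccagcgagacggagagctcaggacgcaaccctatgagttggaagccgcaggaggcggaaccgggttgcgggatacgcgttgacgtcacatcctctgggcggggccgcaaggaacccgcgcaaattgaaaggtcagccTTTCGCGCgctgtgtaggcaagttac
CLSPN (chr1:35769949-35770128, minus strand): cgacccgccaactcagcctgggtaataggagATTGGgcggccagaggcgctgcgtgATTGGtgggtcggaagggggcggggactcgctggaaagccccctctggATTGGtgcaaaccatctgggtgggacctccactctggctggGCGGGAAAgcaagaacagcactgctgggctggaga
XRCC2 (chr7:152676112-152676291, minus strand): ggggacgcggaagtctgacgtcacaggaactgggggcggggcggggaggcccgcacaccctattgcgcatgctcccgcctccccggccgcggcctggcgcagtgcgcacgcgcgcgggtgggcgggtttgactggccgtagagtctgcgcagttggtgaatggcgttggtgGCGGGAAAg
BLM (chr15:90717196-90717375, plus strand): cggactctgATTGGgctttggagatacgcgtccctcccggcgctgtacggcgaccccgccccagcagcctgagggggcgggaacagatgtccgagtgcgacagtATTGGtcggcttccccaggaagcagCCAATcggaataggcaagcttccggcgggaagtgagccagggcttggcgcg

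Motifs were searched on both strands of the window from 250 bases before to 50 after each start, 300 bases long. The E2F letters were TTTCGCGC, TTTGGCGC, TTTCCCGC and TTTGCCGC, so that GCGGGAAA is the other strand of TTTCCCGC. The CCAAT box was searched as spelled in its name and reads ATTGG on the other strand. The cell cycle homology region was TTTGAA, with TTCGAA as the alternative spelling. No motif contains another. A window was given for 35 of the 41 genes; FANCI, RAD54B, WRN, RECQL4, NBN and RMI2 are named only. An E2F match was present in 8 of 35 (22.9%), against 1090 of all 27305 genes with a RefSeq window (3.99%). Those 27305 were not limited to genes tested here, whereas all 35 were tested. It was present in 7 of the 22 genes with a window that rose, namely FANCD2, EXO1, CLSPN, XRCC2, TOPBP1, FANCC and FANCA, and in 1 of the 12 that were not called, RMI1. CCAAT was present in 18 of 35 (51.4%), against 39.7% of all genes with a window, in 10 of the 22 that rose and in 8 of the 12 not called. The cell cycle homology region was present in 3 of 35 (8.57%), against 19.5% of all genes with a window. A match describes the letters only.

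Sequencing depth lay between 47268072 and 56513548 counts per library. EFNB2, the targeted gene, had 0.170, 0.136, 0.143, 0.110 and 0.0365 CPM (counts normalised to library size) in control libraries A to E and 0.955, 1.12, 1.254, 1.496 and 1.21 with its guide. The groups did not overlap, and the log2 fold change was 3.32 (SE 0.25, adjusted p = 4.68e-08). Summed CPM of 12 plasma cell markers was 6163 to 6961 with the control guide and 5830 to 6080 with the EFNB2 guide. Summed markers of T cells (5 genes), myeloid cells (5), mature B cells (4) and epithelium (4) stayed at or under 5.33 CPM in every library, and fibroblast markers (4 genes) summed to 16.0 to 21.8 CPM and to 22.7 to 26.9, nearly all of it COL1A1. No marker was at 0 in every library. In bulk RNA, a smaller share of cells in a state and less RNA per cell cannot be told apart.

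Most of the repair genes were higher with the EFNB2 guide, by small amounts. At an adjusted p under 0.05 (edgeR quasi-likelihood test, Benjamini-Hochberg over all 17834 genes), 25 of 41 rose, 1 fell (ATR) and 15 were not called. Among all tested genes 22.8% were called higher and 22.6% lower. The median log2 fold change of the 41 was 0.13, against 0.01 over all tested genes, and the range was -0.11 to 0.64. Of the 41, 38 changed less than 1.5-fold and 30 less than 1.2-fold. FANCI, RECQL4 and BLM were the exceptions to the first of these counts. In 10 genes every EFNB2-guide library was above every control library (15.05% of all tested genes), and in 2, PALB2 and WRN, every one was below (15.2% of all tested genes), although neither of these passed the adjusted threshold. FANCD2 and FANCI, 5 of 6 strand exchange genes and 6 of 8 core complex genes rose, whereas the BLM partners, NBN, RAD50 and LIG4 did not pass.

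**Figure D1:**
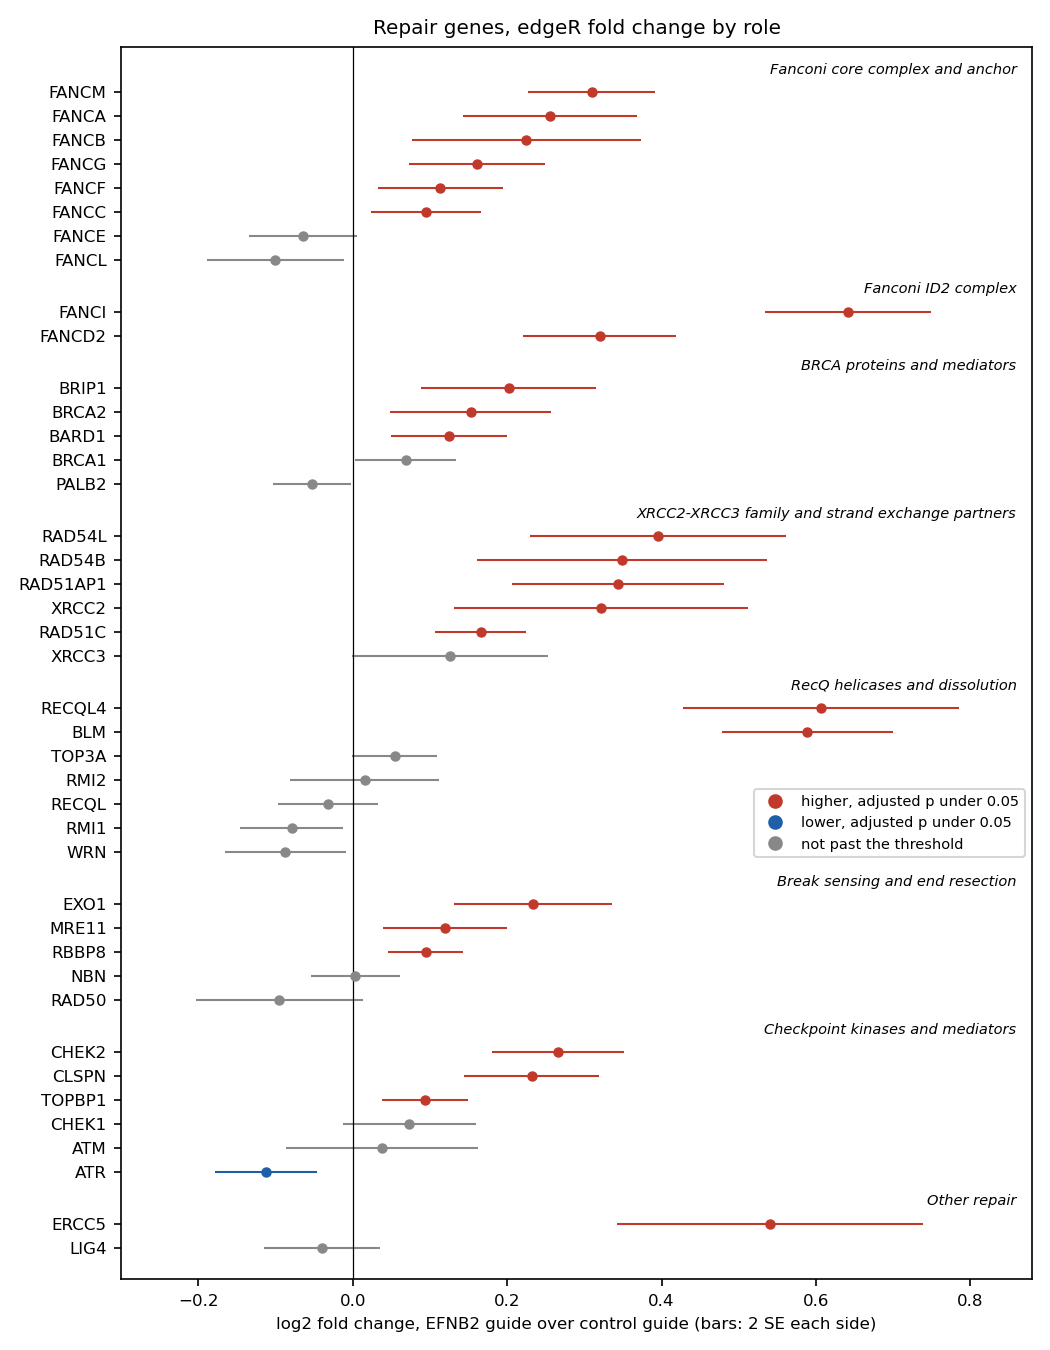
Log2 fold change of each of the 41 genes (x axis, EFNB2 guide over control guide) by role, with bars of 2 SE on each side and n = 5 libraries per guide. Red points (25 genes) passed the adjusted threshold as higher and the blue point (ATR) as lower, and FANCI, RECQL4 and BLM lie farthest to the right.

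The A library of each guide stood apart from B to E in these genes. Control library A was the highest of the 5 control libraries in 24 of 41 genes, and in 19 of the 25 that rose. EFNB2-guide library A was the lowest of its 5 in 21 of 41, and in 18 of the 25. Both A libraries therefore lay between the guides in many genes, and when same-lettered libraries were set side by side, EFNB2-guide minus control, 15 of 41 genes were above 0 for A, 29 for B, 32 for C, 32 for D and 33 for E. The median log2 difference of the 41 was -0.03 for A and 0.14, 0.21, 0.15 and 0.17 for B to E. Over all tested genes the median was -0.0051 for A and 0.006, 0.0099, 0.0014 and 0.0088 for B to E. The counts of genes by library are given for the 41 only, without a share over all tested genes. Genes of DNA replication and mitosis moved with the repair genes. The summed CPM of 46 S phase genes was 6749 in control A against 5979 to 6096 in control B to E, and 6776 in EFNB2-guide A against 7139 to 7143 in B to E. For 46 genes of G2 and mitosis the sums were 5247 against 4564 to 4704, and 5622 against 6347 to 6410. Between the guides, 35 of the 46 S phase genes rose and 2 fell (median log2 fold change 0.20), and 45 of the 46 G2 and mitosis genes rose and 0 fell (median 0.41). The part of cell division in the repair gene changes was not tested.

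**Figure D2:**
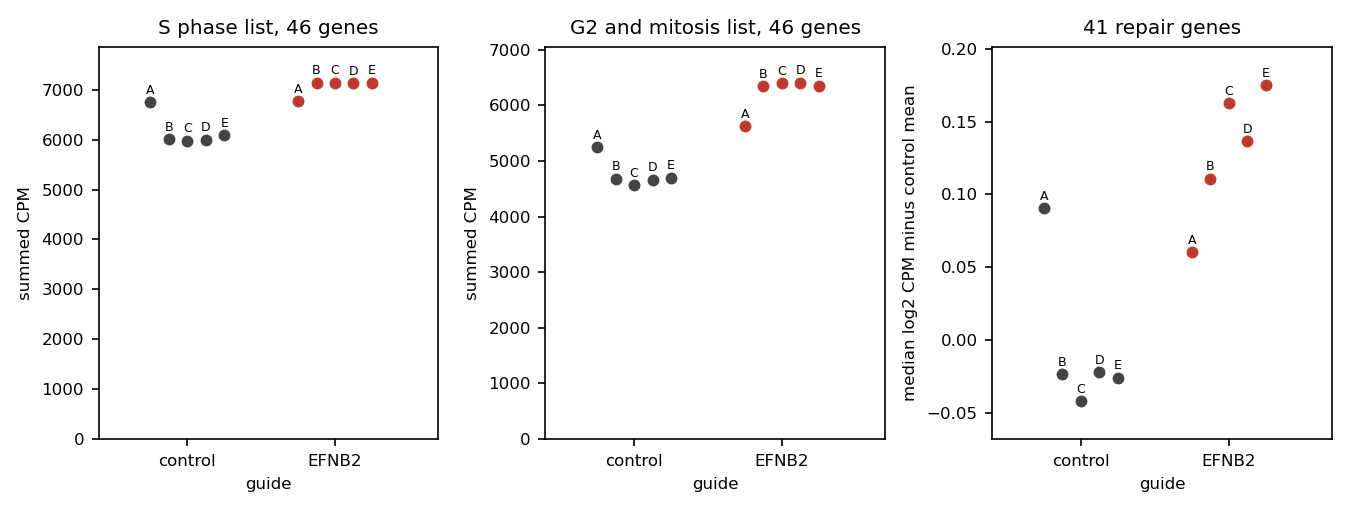
Summed CPM of the S phase list and of the G2 and mitosis list, and the median log2 CPM of the 41 repair genes minus their control means, in each library A to E of both guides. In all 3 panels control A lies above control B to E, and EFNB2-guide A below EFNB2-guide B to E.

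Without control library A, 26 of the 41 rose and 1 fell, with 25.6% of all tested genes then called higher. Without both A libraries, 28 rose and 2 fell, with 27.95% of all tested genes called higher and 27.2% lower, and the median log2 fold change of the 41 was 0.18. The A libraries were singled out by values of these same genes, lying between the guides in many of them. Leaving them out therefore widens the differences of those genes by construction. Calls gained that way, here and for single genes below, are not separate support. Of the 26 genes called with all libraries, 21 were called whichever library was left out. The 5 that were not are FANCB, FANCC, FANCF, BRCA2 and MRE11.

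**Figure D3:**
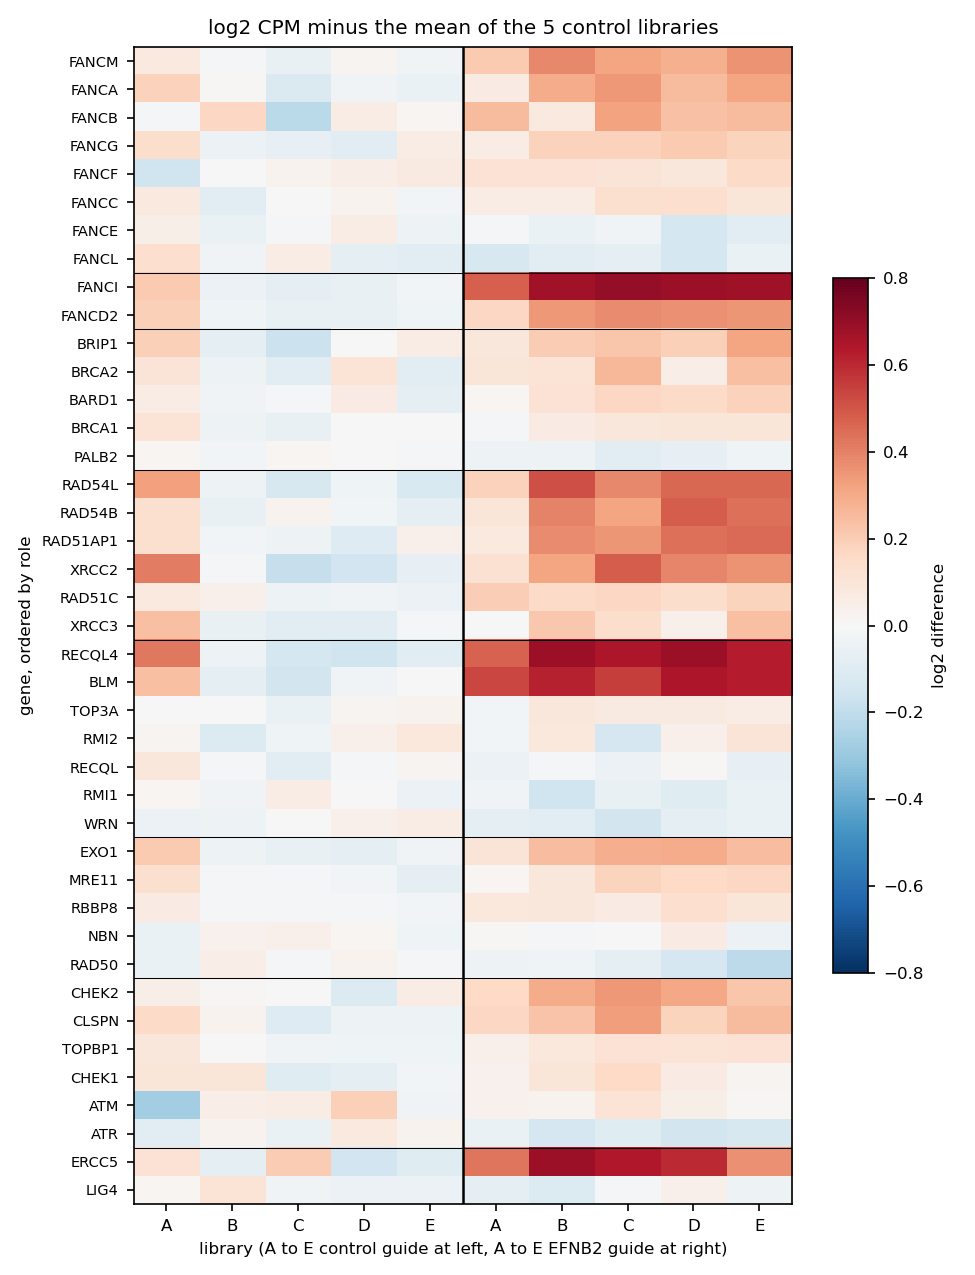
Log2 CPM of each of the 41 genes (rows, by role) minus its control mean, in control libraries A to E (left) and EFNB2-guide libraries A to E (right). The rows of FANCI, RECQL4, BLM and ERCC5 are darkest at the right, and in the left block column A is redder than B to E for most genes.

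In the Fanconi core complex and its anchor, 6 of 8 genes rose and 0 fell (median log2 fold change 0.14). FANCM, the DNA translocase that brings the core complex to chromatin, rose most. Its CPM was 21.0, 19.7, 19.1, 20.2 and 19.5 in control libraries A to E and 22.98, 25.9, 24.7, 24.2 and 25.5 with the EFNB2 guide. The groups did not overlap, and the log2 fold change was 0.31 (SE 0.04, adjusted p = 1.81e-05). FANCA, a large scaffold subunit, had 58.8, 52.2, 47.8, 50.9 and 49.9 CPM and then 54.2, 63.6, 66.0, 61.7 and 64.6, so that only the A libraries overlapped (0.26, SE 0.06, adjusted p = 0.00173). FANCG, which binds FANCA, rose by 0.16 on the log2 scale (adjusted p = 0.00741). FANCE, the subunit that contacts FANCD2, had 31.0 ± 1.09 CPM (SD, n = 5) and 29.6 ± 1.01 (SD, n = 5), and FANCL, the ubiquitin ligase subunit, had 24.0 ± 1.60 (SD, n = 5) and 22.4 ± 0.557 (SD, n = 5). Neither passed (log2 fold change -0.06, adjusted p = 0.152, and -0.10, adjusted p = 0.0776). The scaffold and the ligase subunit thus had estimates of opposite sign, with FANCL not called.

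Of the core genes, 3 had calls near the threshold that were lost when certain single libraries were left out. FANCB, the X-linked partner of FANCL, rose by 0.22 (adjusted p = 0.0219), with adjusted p = 0.0561 without control C and 0.0538 without EFNB2-guide C. FANCC, which pairs with FANCE, rose by 0.09 (adjusted p = 0.0419), and the call was lost without any 1 of control B, C, D or E or EFNB2-guide C, D or E (adjusted p = 0.0511 to 0.103). FANCF, an adaptor between subunits, had no overlap between guides, with 27.3 ± 1.66 CPM (SD, n = 5) and 29.5 ± 0.455 (SD, n = 5). It rose by 0.11 (adjusted p = 0.0321), while without control A the value was 0.08 (adjusted p = 0.0526) and without EFNB2-guide E the adjusted p was 0.0568.

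FANCD2 and FANCI, the pair that the core complex marks with ubiquitin, both rose, and FANCI rose more. FANCI had 213, 178, 174, 177 and 181 CPM in control libraries A to E and 256, 294, 301, 297 and 294 with the EFNB2 guide. No library overlapped, and the mean went from 185 ± 16.0 (SD, n = 5) to 288 ± 18.2 (SD, n = 5), a fold of 1.56 (log2 fold change 0.64, SE 0.05, adjusted p = 1.36e-07). FANCD2 had 94.5, 80.8, 79.4, 79.4 and 80.8 CPM and then 93.0, 105, 107, 107 and 106. Its A libraries were nearly level and crossed, control A lying above EFNB2-guide A, while B to E of the guides were far apart relative to their spread (log2 fold change 0.32, SE 0.05, adjusted p = 8.44e-05). Between same-lettered libraries the log2 difference of FANCD2 was -0.02 for A and 0.38 to 0.43 for B to E, and that of FANCI was 0.27 for A and 0.70 to 0.79 for B to E. The FANCI to FANCD2 ratio of CPM ranged from 2.19 to 2.25 with the control guide and from 2.75 to 2.80 with the EFNB2 guide, a log2 difference of 0.32 (exact permutation test, two-sided, p = 0.0079, adjusted p = 0.0132 over 10 ratios of partner genes). These ratios were chosen after the genes' values were seen, and 0.0079 is the smallest p that 5 against 5 libraries can give. FANCI shares 5.9% of its exon bases with POLG on the opposite strand, which had a log2 fold change of 0.52.

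**Figure D4:**
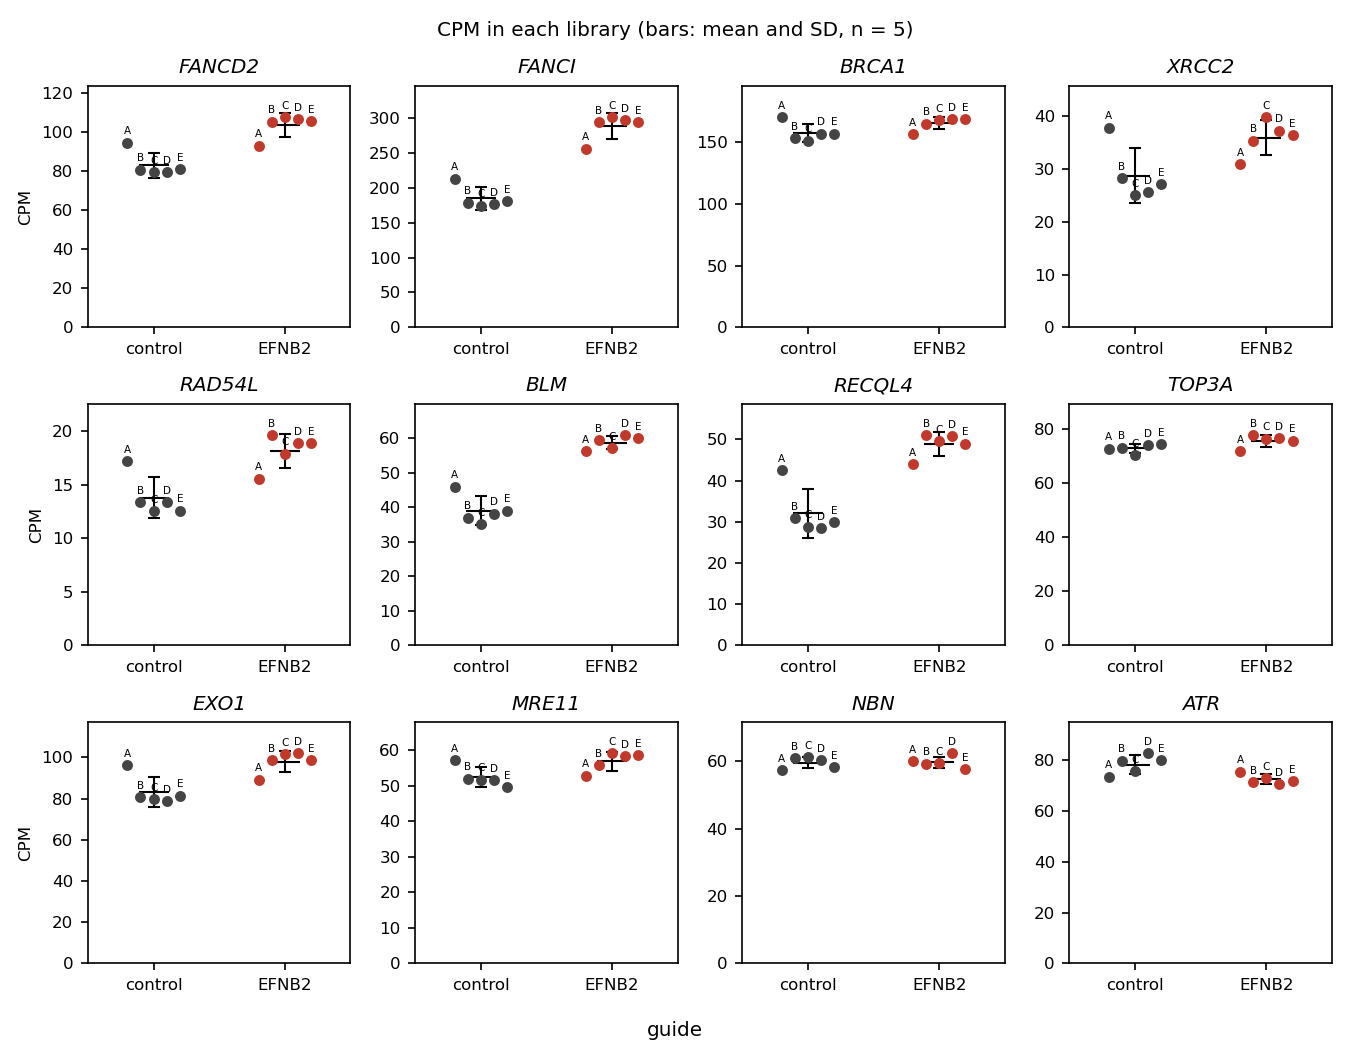
CPM of 12 repair genes in each library (points, lettered A to E) with mean and SD (bars, n = 5) for the control guide (grey) and the EFNB2 guide (red), each axis starting at 0. FANCI, BLM and RECQL4 do not overlap between guides, whereas FANCD2, RAD54L and EXO1 cross only at their A libraries, control A of XRCC2 lies above 4 of its 5 EFNB2-guide libraries, and NBN overlaps throughout.

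Among BRCA proteins and their mediators, 3 of 5 rose and 0 fell (median log2 fold change 0.13). BRIP1, the helicase that binds BRCA1, had 52.2, 43.4, 40.7, 45.9 and 47.8 CPM in control libraries A to E and 48.9, 52.9, 53.6, 52.4 and 56.99 with the EFNB2 guide. Control A lay above EFNB2-guide A and just under D, and the log2 fold change was 0.20 (SE 0.06, adjusted p = 0.00868). BRCA1, a ubiquitin ligase that promotes end trimming, had 170, 153, 151, 157 and 157 CPM and then 156, 165, 168, 168 and 168. Control A was the highest of all 10 libraries, and EFNB2-guide A fell among the controls. With all libraries BRCA1 was not called (log2 fold change 0.07, SE 0.03, adjusted p = 0.1002), whereas it passed without control A (0.10, adjusted p = 0.00409) and without EFNB2-guide A (0.09, adjusted p = 0.0311). Its obligate partner BARD1 had 48.1, 45.3, 45.5, 48.2 and 43.6 CPM and then 46.6, 49.9, 51.6, 51.2 and 52.3, again with an overlap at EFNB2-guide A (0.13, SE 0.04, adjusted p = 0.0132). The BARD1 to BRCA1 ratio differed by 0.06 on the log2 scale (exact permutation p = 0.0952, adjusted p = 0.103), which is within the spread of the libraries.

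BRCA2, which acts on the trimmed end, and PALB2, which ties BRCA2 to BRCA1, had estimates of opposite sign. BRCA2 had 28.5, 25.9, 25.1, 28.7 and 25.1 CPM in control libraries A to E and 28.5, 28.8, 32.0, 27.6 and 31.4 with the EFNB2 guide. The groups overlapped, and the call (0.15, SE 0.05, adjusted p = 0.0257) was lost without any 1 of control B, C or E or EFNB2-guide C or E (adjusted p = 0.0548 to 0.0684). PALB2 had 46.9, 45.6, 46.8, 46.3 and 45.99 CPM and then 45.1, 45.1, 43.6, 44.2 and 45.3. Every EFNB2-guide library was below every control library, by a small margin that did not pass (-0.05, SE 0.03, adjusted p = 0.103). The BRCA2 to PALB2 ratio differed by 0.21 (exact permutation p = 0.0079, adjusted p = 0.0132) without overlap.

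The XRCC2-XRCC3 family and strand exchange partners rose in 5 of 6 cases, with a median log2 fold change of 0.33. RAD54L, a motor that remodels DNA during strand invasion, had 17.2, 13.3, 12.5, 13.4 and 12.6 CPM in control libraries A to E and 15.6, 19.6, 17.9, 18.9 and 18.9 with the EFNB2 guide. The A libraries crossed, and B to E of the guides were well separated (0.40, SE 0.08, adjusted p = 0.00116). XRCC2, a subunit of the BCDX2 complex, had 37.8, 28.3, 25.01, 25.6 and 27.1 CPM and then 31.0, 35.4, 39.8, 37.3 and 36.5. Control A was above 4 of the 5 EFNB2-guide libraries, and the log2 fold change of 0.32 (SE 0.10, adjusted p = 0.0120) became 0.44 without control A and 0.49 without both A libraries. RAD51AP1, which promotes strand pairing, rose by 0.34 (SE 0.07, adjusted p = 0.000784), from 10.3 ± 0.624 CPM (SD, n = 5) to 13.1 ± 1.31 (SD, n = 5). RAD51C, a subunit shared by BCDX2 and the complex with XRCC3, rose by 0.17 (SE 0.03, adjusted p = 0.000298) with no overlap, from 52.7 ± 2.02 (SD, n = 5) to 59.1 ± 0.920 (SD, n = 5).

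XRCC3, the partner of RAD51C in the other complex, had 32.4, 26.3, 25.9, 25.9 and 27.2 CPM in control libraries A to E and 27.4, 31.8, 30.3, 28.2 and 32.5 with the EFNB2 guide. It was not called with all libraries (0.13, SE 0.06, adjusted p = 0.123) and passed without control A (0.19, adjusted p = 0.00254). RAD54B, a relative of RAD54L, rose by 0.35 (SE 0.09, adjusted p = 0.00685) at a low count, from 2.20 ± 0.124 CPM (SD, n = 5) to 2.81 ± 0.285 (SD, n = 5). Its value is uncertain, since 59.1% of its exon bases belong also to FSBP on the same strand, which rose by 0.40. XRCC3 shares 76.7% of its exon bases with KLC1 on the opposite strand (log2 fold change 0.18), and RAD54L 25.1% with LRRC41 on the opposite strand, which fell by 0.18 on the log2 scale. The strand setting used for counting is not given in the sources used here, so reads from opposite-strand partners cannot be told apart.

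The RecQ helicases and the dissolution complex were uneven: 2 of 7 rose, 0 fell, and the median log2 fold change was 0.02. Over all tested genes 22.8% were called higher, so the count that rose is near the general share. BLM, the helicase that undoes joined chromosomes, had 45.9, 36.9, 35.1, 38.1 and 39.0 CPM in control libraries A to E and 56.3, 59.4, 57.02, 60.8 and 60.0 with the EFNB2 guide. No library overlapped, and the mean went from 39.0 ± 4.12 (SD, n = 5) to 58.7 ± 1.93 (SD, n = 5) (log2 fold change 0.59, SE 0.06, adjusted p = 5.10e-07). RECQL4, a helicase that also acts in starting replication, had 42.6, 30.9, 28.8, 28.4 and 29.9 CPM and then 44.0, 51.0, 49.6, 50.9 and 49.0. Its A libraries were within 2 CPM of each other and B to E of the guides were far apart (1.52-fold, log2 fold change 0.61, SE 0.09, adjusted p = 5.03e-05). WRN, the Werner syndrome helicase, had 15.3 ± 0.511 CPM (SD, n = 5) and 14.4 ± 0.339 (SD, n = 5) without overlap and did not pass (-0.09, adjusted p = 0.0842). RECQL was not called either (-0.03, adjusted p = 0.449), and it shares 41.5% of its exon bases with PYROXD1 on the opposite strand.

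The partners of BLM were not called. TOP3A, the topoisomerase that decatenates the strands, had 72.6, 73.0, 70.2, 73.8 and 74.2 CPM in control libraries A to E and 71.7, 77.5, 76.3, 76.6 and 75.7 with the EFNB2 guide (0.05, SE 0.03, adjusted p = 0.123). Only EFNB2-guide A lay among the controls, and without that library the gene passed (0.08, adjusted p = 0.0237). RMI1, a scaffold for TOP3A, had 34.6, 33.7, 35.7, 34.2 and 33.2 CPM and then 33.7, 30.7, 32.9, 32.0 and 33.0 (-0.08, SE 0.03, adjusted p = 0.0661). Its groups overlapped in EFNB2-guide A, and without that library it passed as lower (-0.09, adjusted p = 0.0403). RMI2, the other small subunit, overlapped fully, with 26.4 ± 1.37 CPM (SD, n = 5) and 26.6 ± 1.74 (SD, n = 5) (0.02, SE 0.05, adjusted p = 0.824). The ratio of BLM to each partner was higher with the EFNB2 guide, by 0.54 for TOP3A, 0.67 for RMI1 and 0.58 for RMI2 (log2 scale). No ratio overlapped between guides (exact permutation p = 0.0079 each, adjusted p = 0.0132). All of these ratios share BLM and were chosen after the values were seen. They restate the rise of BLM beside partners that were not called, and are not separate results.

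Break sensing and end resection genes rose in 3 of 5 cases, with a median log2 fold change of 0.09. EXO1, the long-range resection nuclease, had 96.2, 80.7, 79.8, 78.6 and 81.4 CPM in control libraries A to E and 89.2, 98.6, 102, 102 and 98.8 with the EFNB2 guide. Control A lay above EFNB2-guide A, and every other control lay below every EFNB2-guide library (0.23, SE 0.05, adjusted p = 0.00167). RBBP8, the CtIP protein that starts resection, rose by 0.09 (SE 0.02, adjusted p = 0.00511), from 137 ± 3.42 CPM (SD, n = 5) to 146 ± 2.68 (SD, n = 5).

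In the MRE11-RAD50-NBN complex 1 subunit was called, MRE11. MRE11, its nuclease, had 57.1, 52.0, 51.7, 51.5 and 49.5 CPM in control libraries A to E and 52.8, 55.7, 59.1, 58.3 and 58.7 with the EFNB2 guide. Control A lay above EFNB2-guide A and B. MRE11 passed narrowly (0.12, SE 0.04, adjusted p = 0.0239), and the call was lost without any 1 of control C or E or EFNB2-guide C, D or E (adjusted p = 0.0516 to 0.0678). NBN, the subunit that recruits ATM, had 57.4, 61.0, 61.2, 60.3 and 58.3 CPM and then 60.0, 59.3, 59.4, 62.3 and 57.7, with full overlap. Its log2 fold change was 0.00 (SE 0.03, adjusted p = 0.945), and 2 SE on either side span a fold of 0.963 to 1.04. RAD50, the ATPase of the complex, had 7.30, 7.83, 7.47, 7.73 and 7.51 CPM and then 7.37, 7.40, 7.21, 6.89 and 6.54 (-0.10, SE 0.05, adjusted p = 0.169), with the lowest values in EFNB2-guide D and E. RAD50 counts are uncertain, because 79.7% of its exon bases belong also to the same-strand gene model AC116366.3, listed with 0 counts. The MRE11 to RAD50 ratio was higher by 0.22 on the log2 scale, with overlap (exact permutation p = 0.0317, adjusted p = 0.0397). The MRE11 to NBN ratio did not pass (log2 difference 0.12, exact permutation p = 0.103, adjusted p = 0.103). Without both A libraries the difference was 0.19. No p is read there, because the A libraries were singled out by values of these same genes.

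Of the checkpoint kinases and mediators, 3 of 6 rose and 1 fell (median log2 fold change 0.08). ATR, the kinase that answers stalled replication, was the 1 repair gene that fell. It had 73.5, 79.8, 75.5, 82.6 and 79.8 CPM in control libraries A to E and 75.5, 71.2, 72.9, 70.6 and 71.6 with the EFNB2 guide, so that control A lay among the EFNB2-guide libraries (-0.11, SE 0.03, adjusted p = 0.0118). ATM, the kinase that answers double-strand breaks, had 37.3, 46.99, 47.2, 51.7 and 44.3 CPM and then 46.3, 46.2, 48.9, 46.7 and 45.6. Control A was the lowest of all 10, the groups overlapped, and ATM was not called (0.04, SE 0.06, adjusted p = 0.654). CHEK2, the kinase below ATM, had 23.7, 23.1, 23.02, 21.3 and 23.9 CPM and then 25.7, 28.2, 29.2, 28.4 and 26.8, without overlap (0.27, SE 0.04, adjusted p = 0.000117). CHEK1, the kinase below ATR, had 40.2, 40.2, 35.1, 35.5 and 37.0 CPM and then 38.5, 40.1, 41.8, 39.4 and 38.1, overlapping (0.07, SE 0.04, adjusted p = 0.184), and without both A libraries it passed as higher (0.11, adjusted p = 0.0226).

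The kinase pairs differed in their ratios. CHEK2 to CHEK1 was higher by 0.19 on the log2 scale without overlap (exact permutation p = 0.0079, adjusted p = 0.0132), and ATM to ATR by 0.16 with overlap (exact permutation p = 0.0317, adjusted p = 0.0397). CLSPN, the claspin adaptor through which ATR activates CHEK1, had 124, 113, 103, 108 and 108 CPM in control libraries A to E and 125, 130, 140, 126 and 132 with the EFNB2 guide. Control A came within 2 CPM of the lowest EFNB2-guide library without reaching it (0.23, SE 0.04, adjusted p = 0.000498). TOPBP1, the activator of ATR, rose by 0.09 (SE 0.03, adjusted p = 0.0127), from 223 ± 8.33 CPM (SD, n = 5) to 238 ± 5.16 (SD, n = 5).

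The remaining 2 genes belong to other repair routes. LIG4, the ligase of end joining, had 36.1, 38.5, 35.1, 34.6 and 34.7 CPM in control libraries A to E and 34.0, 33.1, 35.4, 36.7 and 34.8 with the EFNB2 guide, and the groups overlapped (-0.04, SE 0.04, adjusted p = 0.419). ERCC5, the XPG nuclease of nucleotide excision repair, had 2.36, 2.08, 2.51, 1.96 and 2.04 CPM and then 2.94, 3.50, 3.41, 3.30 and 2.81. Its groups did not overlap (1.45-fold, log2 fold change 0.54, SE 0.10, adjusted p = 0.000392). The ERCC5 count is low and uncertain, since 63.2% of its exon bases belong also to the read-through model BIVM-ERCC5, listed with 0 counts, and 19.1% to BIVM, which fell by 0.30 on the log2 scale.

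FANCI and BLM lie on chromosome 15, where most genes were higher. Of 623 tested genes there, 63.9% rose, with a median log2 fold change of 0.31, whereas medians of the other chromosomes ran from -0.03 to 0.05 and their shares of risen genes from 18.4% to 29.6%. FANCI was above 83.3% and BLM above 80.4% of the chromosome 15 genes. Within 5 Mb on either side of FANCI, 50 of 83 tested neighbours rose and their median was 0.37, and within 5 Mb of BLM 37 of 60 rose with a median of 0.38. The median same-letter difference over all chromosome 15 genes was 0.33 for A and 0.29 to 0.33 for B to E. That of FANCI was 0.27 for A and 0.70 to 0.79 for B to E, and that of BLM was 0.29 and 0.62 to 0.70. What the letters mark is not stated in the labels. The part of chromosome 15 in the changes of FANCI and BLM was not tested. RECQL4, on chromosome 8, was above 98.9% of its 89 tested neighbours, whose median was 0.07. ERCC5, on chromosome 13, was above 92.3% of its 26, whose median was -0.01. LIG4, also on chromosome 13, was above 22.2% of its 27, of which 10 rose and 5 fell, with a median of 0.12. FANCF, on chromosome 11, had 33 tested neighbours, of which 15 rose and 6 fell. Their median was 0.21, against 0.11 for FANCF itself. EFNB2, the target of the guide, starts at base 106489731 of chromosome 13. It lies within 5 Mb of both ERCC5 (start 102807146) and LIG4 (start 108207439). The part of this nearness in the values of ERCC5 and LIG4 was not tested. With chromosome 15 genes left out, 23 of the other 39 repair genes rose.

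**Figure D5:**
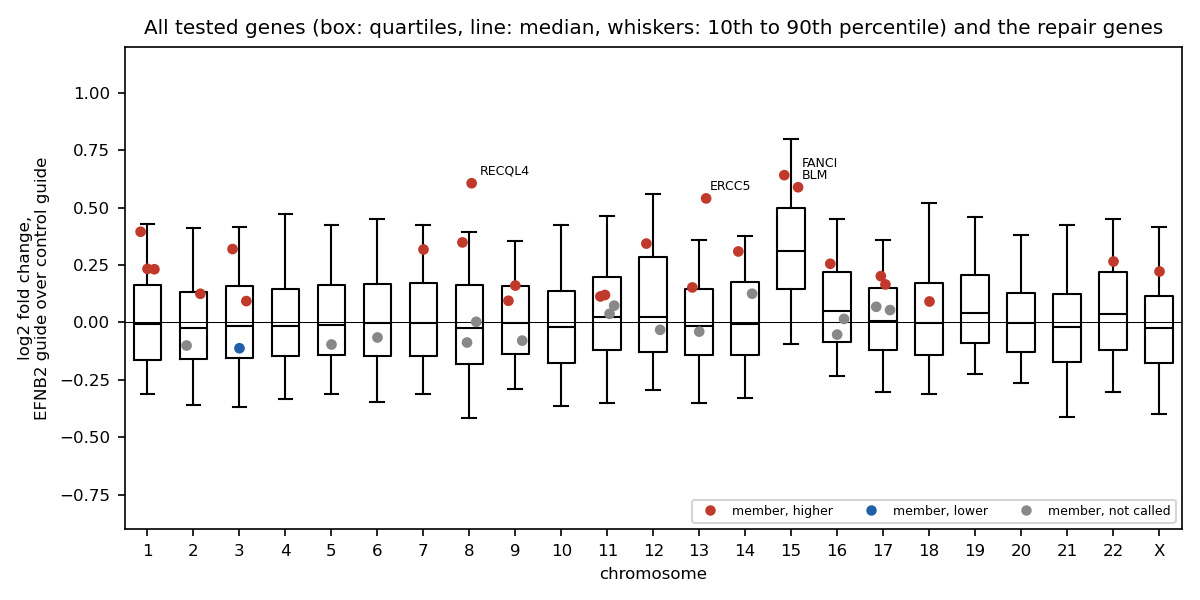
Log2 fold change (y axis, EFNB2 guide over control guide) of all tested genes by chromosome (boxes give quartiles and median, whiskers the 10th to 90th percentile), with the 41 repair genes as points coloured by call. The box of chromosome 15 lies above the rest with a median of 0.31, FANCI and BLM are above its box but inside its whiskers, and RECQL4 and ERCC5 are above the whiskers of their chromosomes.

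Other genes of the same pathways, 107 on 5 lists and 105 of them tested, gave 42 that rose and 25 that fell (median log2 fold change 0.04). Over all tested genes 22.8% were called higher and 22.6% lower, so the share of these genes that fell was near the general one. Among 22 tested genes of Fanconi and crosslink repair, 11 rose and 5 fell (median 0.11). The largest rises were EME1, a subunit of a structure-specific nuclease (0.35), FAN1, a crosslink nuclease on chromosome 15 (0.30), and UHRF1, a crosslink sensor that is also on the S phase list (0.29). Above the expression limit for naming (average log2 CPM of 1), the largest falls were ERCC1 (-0.16) and ERCC4 (-0.15), which form the unhooking nuclease, and DCLRE1A (-0.12), an exonuclease. POLN, a polymerase at a mean log2 CPM of -1.34, fell further (-1.65) and is named after its value was seen. In homologous recombination, 14 of 29 rose and 7 fell (median 0.05). POLQ rose by 0.46, and HROB, which brings the MCM8-MCM9 helicase, by 0.45. POLQ is the polymerase of microhomology joining but was counted on this list and not on that of end joining. ABRAXAS1, a subunit of the BRCA1-A complex (-0.50), RAD51B (-0.30) and SFR1 (-0.22) fell most.

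Break signalling and checkpoint genes rose in 10 of 18 cases and fell in 2 (median 0.11). CDC25C, a phosphatase that is also on the mitosis list (0.50), H2AX, the histone marked at breaks (0.47), and RAD9A, of the checkpoint clamp (0.41), rose most, while RNF168, a ubiquitin ligase (-0.22), and RAD17, the clamp loader (-0.11), fell. In end joining, 2 of 19 rose, DCLRE1C, the Artemis nuclease (0.19), and XRCC6, the Ku70 subunit (0.05), and 5 fell (median -0.01). Its largest falls were APLF (-0.44), XRCC4, the LIG4 partner (-0.20), and LIG3 (-0.19). In nucleotide excision repair, 5 of 17 rose and 6 fell (median -0.04), led by GTF2H3 of the TFIIH complex (0.31), LIG1 (0.24) and UVSSA (0.19) upward and by XPA (-0.20), GTF2H5 (-0.17) and CETN2 (-0.17) downward. Every gene named from these lists passed the adjusted threshold. The counts of end joining genes that fell and of excision repair genes called either way should be read beside the 22.8% higher and 22.6% lower of all tested genes.

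Levels were compared between genes as mean CPM per kb of annotated exon. With the control guide TOPBP1 (30.5), RBBP8 (26.8), FANCI (23.8), CLSPN (20.6), EXO1 (20.1) and BRCA1 (17.1) were highest. With the EFNB2 guide FANCI was first (37.1) and TOPBP1 second (32.5). At the low end were RAD50 (0.775), RAD54B (0.415) and ERCC5 (0.266) with the control guide. The exons of each largely belong to other gene models on the same strand as well. XRCC3, which shares 76.7% of its exon bases with an opposite-strand gene, was higher than these (3.67). In all, 10 of the 41 share at least 10% of their exon bases with another gene. Among these are FANCA (23.6%, ZNF276), FANCL (18.7%, VRK2), ATR (16.4%, a pseudogene) and FANCF (11.3%, GAS2, which rose by 0.47), all with partners on the opposite strand.

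Within guides, the repair genes varied together when the A libraries were included and hardly at all without them. Over 10 libraries, after subtracting each guide's mean log2 CPM, the median Pearson correlation between pairs of the 25 genes that rose was 0.614, and over the 8 libraries without A it was 0.0547. For all 41 genes the medians were 0.285 and 0.0177. All points share libraries and scaling, so these values are a description. Of 9792 genes with enough counts, those most like FANCD2 by this measure over 10 libraries were FANCI (0.997), DSCC1 (0.997), KLHL29 (0.990), AL109918.1 (0.990) and TROAP (0.988). FANCD2 itself stood apart mainly in control A (94.5 CPM against 79.4 to 80.8) and EFNB2-guide A (93.0 against 105 to 107). A high value here thus largely marks a gene that shifted in the A libraries. DSCC1, a sister chromatid cohesion factor on the S phase list, rose by 0.20 and TROAP, a spindle-associated protein, by 0.70, whereas KLHL29 and AL109918.1 were not called.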

How the data were processed

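The authors deposited raw counts per gene, whole numbers without normalization, and these were used for all main results. They also deposited a normalized signal, equal to the raw count plus a small offset times 1 constant per library (within 0.000497%), which served as an alternative on a log2(value + 1) scale. Per the submitters' processing notes, STAR 2.27a, Partek, DESeq2 and GRCh38 were named; the annotation and the strand setting are not given in the sources used. Per the labels' protocols the kit was strand-specific with poly(A) selection. Of the table's rows, 3 that name no gene were left out (at most 7.0e-05% of counts).

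Samples were grouped by the genotype label. In R 4.3.3 with edgeR 4.0.16, libraries were scaled by TMM, filtered by filterByExpr and compared with the quasi-likelihood test, guide as the only term, with Benjamini-Hochberg adjustment and a threshold of 0.05. CPM divide the count by the TMM-scaled library size. The common biological coefficient of variation was 0.0489. Standard errors are the log2 fold change over the square root of F. Partner ratios were compared by exact two-sided permutation (252 arrangements, scipy 1.17.1). Exon lengths and overlaps came from GENCODE 29. Molecular identifiers were not used.

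The repair genes, role groups, other lists, markers and motifs were chosen with earlier results of these data known. Values in every library are given for the largest rise and fall past the threshold of each role group (mean log2 CPM of at least 1), for named partner subunits and kinases, and for LIG4 and ERCC5; FANCA, XRCC2, XRCC3 and CLSPN were added after their values were seen. From the other lists, up to 3 rises and 3 falls past the threshold are named, and 1 gene that this rule gives is not reported here. Neighbour windows were also chosen after values were seen. Alternatives were DESeq2 1.42.0, limma-voom (limma 3.58.1), RLE scaling, library totals, no filter, at least 1 CPM in 5 libraries, the deposited normalized values, the replicate letter as a block, leaving out chromosome 15, both A libraries or each library in turn. The procedure was tested on simulated data.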

Additional observations from a re-analysis of the deposited data

Results flagged for a closer look

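In 15 of 82 sets of 5 libraries (41 genes, 2 guides), a single library lay far from the other 4 for the size of the set. For 1 set alone chance would give this about 1 time in 20. The sets share the same libraries and many genes varied together, so they are not independent. The count of 15 is therefore a description and cannot be set against 1 in 20. All 15 were A libraries: 9 times control A as the highest and 6 times EFNB2-guide A as the lowest. Control A stood high for FANCD2 (94.5 CPM), FANCI (213), RAD54L (17.2), XRCC2 (37.8), XRCC3 (32.4), RECQL4 (42.6), EXO1 (96.2), RBBP8 (143) and TOPBP1 (237). EFNB2-guide A stood low for FANCD2 (93.0 CPM), FANCG (46.1), FANCI (256), RAD51AP1 (10.9), RECQL4 (44.0) and EXO1 (89.2). FANCD2, FANCI, RECQL4 and EXO1 are in both sets.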

How the results depend on the processing

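Over 20 settings, 19 of the 26 calls, all of genes that were higher, were made in every setting that tested the gene (FANCI and BLM were not tested when chromosome 15 was left out). The number of repair genes higher stayed between 19 and 28. It was 23 with DESeq2, 23 without a filter, 21 with the deposited normalized values, and 21 to 27 when 1 library was left out. With the replicate block it was 19 higher and 0 lower, and FANCB, FANCC, FANCF, BRCA2, MRE11, ATR and TOPBP1 were not called. Same-lettered libraries did not deviate together (correlations -0.237 for A, -0.00303, -0.0853, -0.0326 and -0.0367 for B to E), with the A pair the most opposed of the 5. What the letters mark is not stated in the labels. The number lower was 2 without both A libraries, where the median log2 fold change was 0.18, then 5 with the deposited normalized values (FANCL, PALB2, WRN and RMI1 with ATR), and 1 to 2 when 1 library was left out (2 without EFNB2-guide A). The cause of these shifts was not tested.

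The sign turned for 3 genes that were never called in the settings where it did. NBN was -0.00083 without a filter, -0.012 without both A libraries, -0.0037 with DESeq2, -0.022 with the deposited normalized values, and -0.011 (without control A) to 0.020 when 1 library was left out. ATM was -0.023 without both A libraries, and -0.026 (without control A) to 0.091 when 1 was left out. RMI2 was -0.011 with the deposited normalized values, and -0.0077 (without control B) to 0.056 when 1 was left out. Depth does not limit most genes, but RAD54B and ERCC5 had under 4 CPM in every library.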
